A study of Mus musculus with 10 samples.

Results

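The genes described here were grouped around the use of fatty acids as colonocyte fuel, and include regulators, a fatty acid binding protein and a lipid droplet protein. They were the 9 entries named Cpt1a, Cpt2, Acadm, Acads, Fabp2, Pparg, Ppara, Ppargc1a and Plin2 among the 16875 gene names of a table of FPKM values, which scale mapped fragments by transcript length and library size, from mouse colon tumors. All 9 names were present and all 9 passed the filter on low values, a mean of at least 0.5 FPKM over the tumors. Macrodissected tumors from 2 groups of C57BL/6 mice were compared, with 5 tumors in each. In both groups the tumors were induced with azoxymethane (AOM), a carcinogen, and 3 rounds of 2% dextran sulfate sodium (DSS), which inflames the colon, in mice that were 6 to 10 weeks old at the start, and were collected 120 days after AOM. Control mice carried Wls flox/flox without the driver. Villin-WlscKO mice carried Villin-Cre ERT2 and Wls flox/flox, and received 5 injections of tamoxifen at 80 mg/kg, beginning 30 days before collection. Wls is the carrier protein that Wnt ligands need for secretion, and the Villin promoter drives Cre in the intestinal epithelium, so that stromal Wls was not targeted. Control tumors are described as free of tamoxifen unless stated otherwise. How many mice gave the 5 tumors of a group is not given in the sources used here, so p-values measure the spread between these tumors.

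Colonocytes are known to live largely on short-chain fatty acids, above all butyrate, which they oxidize in mitochondria and partly turn into ketone bodies. Long-chain fatty acids enter mitochondria as carnitine esters through Cpt1a, Slc25a20 and Cpt2, and acyl-CoA dehydrogenases specific for chain length begin each round of beta-oxidation. The nuclear receptors Ppara, Ppard and Pparg, with the coactivator Ppargc1a, control many of these genes, and differentiated colonocytes use this fuel more than crypt progenitors do.

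The groups were first checked by their targeted gene and by markers. Wls lay between 61.3 and 79.9 FPKM in control and between 2.03 and 11.7 FPKM in Villin-WlscKO tumors. In the latter group it was 11.6 and 11.7 FPKM in tumors 2 and 3, against 2.81, 3.61 and 2.03 FPKM in tumors 1, 4 and 5. The groups also differed in sex: the female transcript Xist reached at most 0.420 FPKM in control and at least 439 FPKM in Villin-WlscKO tumors, and the Y-linked Eif2s3y, at least 30.4 FPKM in each control tumor, did not exceed 0.138 FPKM in the other group. Genotype, sex and tamoxifen therefore cannot be told apart in any comparison given here. Villin-WlscKO tumors 2 and 3 stood apart, with a summed level of 8 squamous epithelium genes of 991 and 1273 FPKM against 13.2 to 184 FPKM in the other 8 tumors, and the basal keratin Krt5 at 470 and 669 FPKM against at most 0.315 FPKM. Where leaving out these 2 tumors ended or made a call on a named gene, the value without them is given beside it. The summed level of 9 pan-epithelial genes was 6808 to 9624 FPKM in control and 8230 to 10146 FPKM in Villin-WlscKO tumors. None of the 9 passed the threshold of the comparison, though 8 had a higher mean log2(FPKM + 1) in Villin-WlscKO tumors, with a median difference of 0.17. The entry of 1 of them, Krt19, holds the same values as the keratins Krt13 and Krt17. The depth of sequencing is unknown, since no counts were used here.

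None of the 9 genes passed the test for a difference between the genotypes. In limma on log2(FPKM + 1) over all 16757 genes tested, 0 of 9 passed a Benjamini-Hochberg adjusted p of 0.05, where 10.9% of all genes passed, 6.12% higher and 4.75% lower in Villin-WlscKO tumors. At an unadjusted p under 0.05 in limma the count was also 0 of 9, against 25.7% of all genes. In exact permutation tests over all arrangements of the tumors, whose smallest possible p is 0.00794, 0 of 9 had a p under 0.05. The exact tests were not run over all genes, so that this count has no background share beside it. No member had 5 values of one group wholly above the 5 of the other, which 10.1% of all genes did. Taken as the Villin-WlscKO mean of log2(FPKM + 1) minus that of the controls, the differences lay above 0 for 4 genes and below 0 for 5. The entry for Acads, which cannot be read as that gene, was among those 5. With it included, the median was -0.012 against 0.0073 over all genes. The 95% interval of the difference stayed within 1 log2 unit on either side of 0 for 7 of the 8 genes other than Acads. The entry for Acads is taken up further on. The interval stayed within 0.5 for 5 genes, and for the rest changes larger than that are not excluded by these tumors. Ppara, with means of 0.887 and 0.821 FPKM in control and Villin-WlscKO tumors, is 1 of these 5. At such levels the added 1 shrinks differences, so that larger changes of its FPKM are not excluded either. These are bulk tumors, in which fewer cells of a type and less RNA per cell cannot be told apart.

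**Figure D1:**
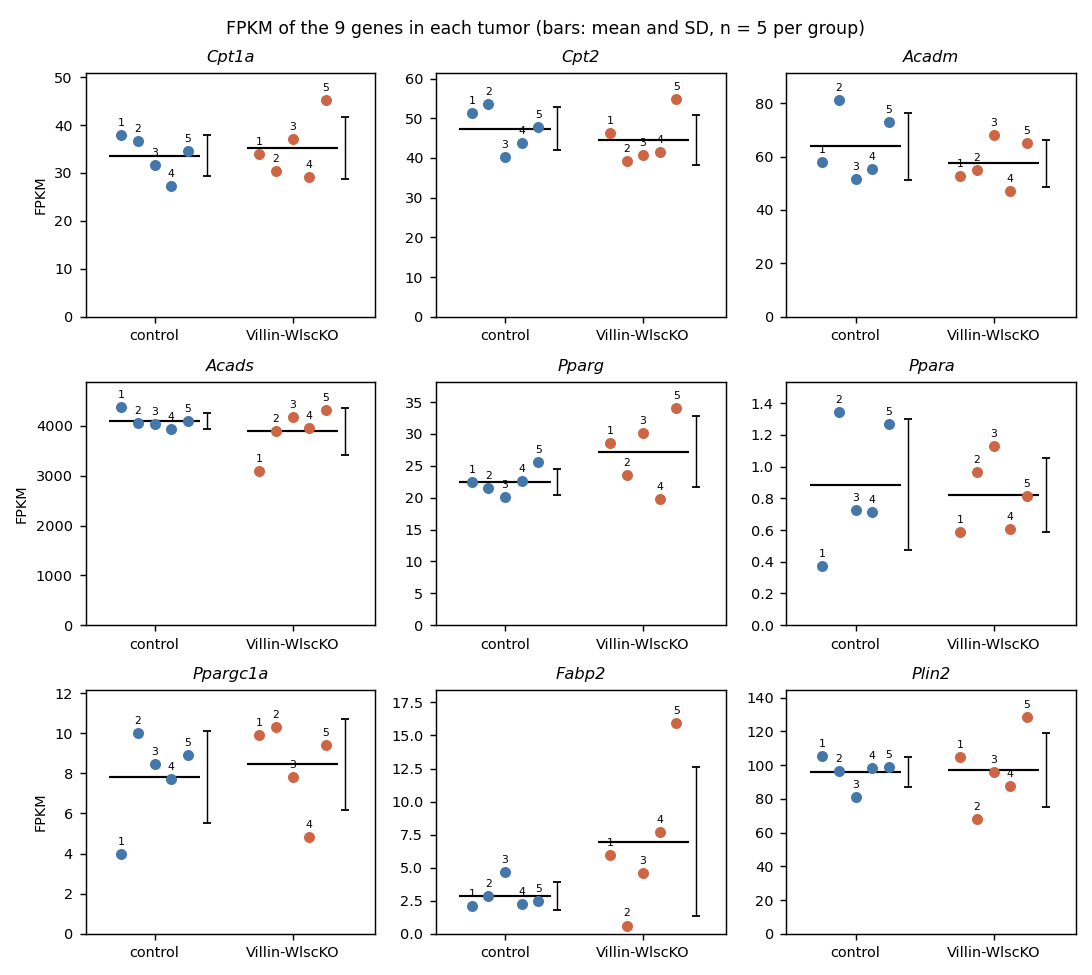
FPKM (y axis, linear from 0) of each of the 9 genes in the 5 control (blue) and 5 Villin-WlscKO (orange) tumors, with the tumor number above each point; the horizontal line is the group mean and the bar beside it 1 SD. The groups overlap in all 9 panels, and the widest relative spread is that of Fabp2 in Villin-WlscKO tumors, from 0.625 to 16.0 FPKM.

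Neither carnitine palmitoyltransferase of the 9 genes passed. Cpt1a (chromosome 19, 3322334 to 3385733 on the plus strand of GRCm38), which attaches long-chain fatty acids to carnitine at the outer mitochondrial membrane, measured 37.9, 36.7, 31.7, 27.2 and 34.7 FPKM in control tumors 1 to 5 and 33.9, 30.4, 37.0, 29.1 and 45.3 FPKM in Villin-WlscKO tumors 1 to 5. Villin-WlscKO tumor 5 was the highest and control tumor 4 the lowest, and the other values were mixed. The difference of mean log2(FPKM + 1) was 0.054 ± 0.13 (SE, n = 5 per group), with a 95% interval from -0.23 to 0.34 (limma adjusted p = 0.843). Cpt2 (chromosome 4, 107903981 to 107923610, minus strand), which moves the fatty acid from carnitine to CoA on the inner side, measured 51.3, 53.7, 40.3, 43.8 and 47.9 FPKM in control and 46.2, 39.2, 40.8, 41.5 and 54.9 FPKM in Villin-WlscKO tumors. Again Villin-WlscKO tumor 5 was the highest, and Villin-WlscKO tumor 2 the lowest. Its difference was -0.091 ± 0.11 log2 units (95% interval -0.33 to 0.15, limma adjusted p = 0.656). Slc25a20, the translocase between these enzymes, was on the other side of the threshold, from 62.1 ± 4.68 to 85.6 ± 15.8 FPKM (mean ± SD, n = 5 each), a rise of 0.44 ± 0.12 log2 units (limma adjusted p = 0.0399). This call was lost under 11 of 22 alternatives (adjusted p from 0.0119 to 0.0945), and the entry holds the same values as Prkar2a in every tumor, so that neither gene can be read alone.

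Of the acyl-CoA dehydrogenases, Acadl passed the threshold and Acadm did not, and the 2 were not tested against each other. Acadm (chromosome 3, 153922357 to 153944632, minus strand), the medium-chain enzyme, measured 58.0, 81.2, 51.7, 55.3 and 73.0 FPKM in control and 52.6, 54.9, 67.9, 47.0 and 65.2 FPKM in Villin-WlscKO tumors. Control tumors 2 and 5 held the highest values, and the other 8 tumors were interleaved. The difference was -0.14 ± 0.14 log2 units (95% interval -0.46 to 0.18, limma adjusted p = 0.599). Acadl, the long-chain enzyme, measured 76.8, 68.0, 89.4, 83.7 and 80.1 FPKM in control and 136, 127, 155, 147 and 113 FPKM in Villin-WlscKO tumors. Every Villin-WlscKO tumor lay above every control tumor. It rose by 0.76 ± 0.10 log2 units (limma adjusted p = 0.0011) and passed under all 23 alternatives in which it was tested. Its FPKM relative to Acadm, a ratio formed after the values were seen, ran from 0.837 to 1.73 in control and from 1.73 to 3.13 in Villin-WlscKO tumors. Acadvl, the very-long-chain enzyme, measured 48.7 ± 5.09 FPKM in control and 52.2 ± 7.58 FPKM in Villin-WlscKO tumors, with a difference of 0.093 ± 0.11 log2 units (limma adjusted p = 0.643).

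The entry for Acads, the short-chain dehydrogenase that acts on butyrate, could not be read as that gene. It measured 4377, 4062, 4042, 3941 and 4099 FPKM in control and 3103, 3897, 4169, 3948 and 4323 FPKM in Villin-WlscKO tumors, with a difference of -0.086 ± 0.11 log2 units (limma adjusted p = 0.696). These levels lay far above those of the other 8 genes. All 10 values were identical to those of Rpl37rt, a transcribed processed pseudogene of the ribosomal protein gene Rpl37. Rpl37rt (chromosome 5, 115102923 to 115110268, minus strand) lies 30 bases from Acads (chromosome 5, 115110299 to 115119346, minus strand). Over the 294 coding bases of Rpl37 on chromosome 15, Rpl37rt was identical at 293, with the 1 difference G249A, counted from 1 at the first coding base and with the base of Rpl37 first. Of the 245 stretches of 50 bases in that coding sequence, 199 occurred in Rpl37rt transcripts and 0 in Acads transcripts. The stretch of 61 bases around the difference, from coding base 219 to 279, is shown because it tells how alike the copies are, with the differing base in capitals (GENCODE M21 transcripts, GRCm38).
Rpl37: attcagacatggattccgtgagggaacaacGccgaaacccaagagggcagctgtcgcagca
Rpl37rt: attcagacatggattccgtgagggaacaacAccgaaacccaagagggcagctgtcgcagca
Rpl37 itself, which encodes a protein of the large ribosomal subunit, was listed at only 12.1 to 16.2 FPKM over the 10 tumors. How reads were divided between these copies was not tested, and no level of Acads is taken from its entry.

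None of the 3 regulators among the 9 genes passed. Ppara (chromosome 15, 85734983 to 85802819, plus strand), the receptor best known for control of fatty acid oxidation in liver, measured 0.375, 1.35, 0.729, 0.715 and 1.27 FPKM in control and 0.587, 0.968, 1.13, 0.607 and 0.816 FPKM in Villin-WlscKO tumors. The lowest and the highest values were both in control tumors. The difference was -0.032 ± 0.17 log2 units (limma adjusted p = 0.934). Pparg (chromosome 6, 115360951 to 115490399, plus strand), the receptor abundant in differentiated colon epithelium and in fat, measured 22.4, 21.5, 20.1, 22.6 and 25.5 FPKM in control and 28.6, 23.5, 30.1, 19.9 and 34.0 FPKM in Villin-WlscKO tumors. Villin-WlscKO tumors 1, 3 and 5 lay above all control tumors and Villin-WlscKO tumor 4 below all of them. The difference was 0.25 ± 0.13 log2 units (95% interval -0.050 to 0.54, limma adjusted p = 0.281, exact permutation p = 0.127). Ppargc1a (chromosome 5, 51454250 to 51567726, minus strand), the coactivator that drives mitochondrial genes, measured 3.96, 9.99, 8.46, 7.72 and 8.94 FPKM in control and 9.93, 10.3, 7.80, 4.80 and 9.41 FPKM in Villin-WlscKO tumors. Control tumor 1 and Villin-WlscKO tumor 4 were low, and the other 8 tumors lay within 7.72 to 10.3 FPKM. The difference was 0.11 ± 0.24 log2 units (limma adjusted p = 0.825).

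Of the PPAR receptors, the one that passed was Ppard. This receptor, which is widely expressed in intestinal epithelium, measured 21.4, 26.7, 35.5, 19.9 and 25.9 FPKM in control and 34.0, 34.5, 47.9, 47.3 and 67.6 FPKM in Villin-WlscKO tumors. Only control tumor 3 reached into the range of the Villin-WlscKO tumors. Ppard rose by 0.80 ± 0.20 log2 units (limma adjusted p = 0.0321), but 8 of 23 alternatives lost the call, with adjusted p from 0.0180 to 0.0772 over the alternatives and 0.0682 without Villin-WlscKO tumors 2 and 3. Nrip1, a corepressor of nuclear receptors, fell by 0.40 ± 0.072 log2 units (21.0 ± 1.75 to 15.6 ± 0.691 FPKM, limma adjusted p = 0.0062). Of the 20 genes for receptors and partners tested, Ppard was the only one called higher and Nrip1 the only one called lower. Over all genes, 6.12% were called higher and 4.75% lower. Rxra, the partner of the receptors on DNA, measured 14.1 ± 1.37 and 14.7 ± 2.77 FPKM (limma adjusted p = 0.858), and Hnf4a, a regulator of enterocyte genes, 112 ± 25.6 and 130 ± 41.1 FPKM (limma adjusted p = 0.657).

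Fabp2, the intestinal fatty acid binding protein of absorptive cells, was the member whose reading depended on single tumors. Fabp2 (chromosome 3, 122895072 to 122899506, plus strand) measured 2.11, 2.88, 4.67, 2.22 and 2.47 FPKM in control and 5.98, 0.625, 4.62, 7.68 and 16.0 FPKM in Villin-WlscKO tumors. Villin-WlscKO tumors 1, 4 and 5 lay above all controls, Villin-WlscKO tumor 3 just below the highest control, and Villin-WlscKO tumor 2 below all controls. The difference was 0.72 ± 0.51 log2 units (95% interval -0.40 to 1.85, limma adjusted p = 0.417, exact permutation p = 0.246). Without Villin-WlscKO tumor 2 it was 1.21 log2 units (limma adjusted p = 0.0401), in a fit where 9.80% of all genes passed. With both Villin-WlscKO tumors 2 and 3 left out it was 1.42 (limma adjusted p = 0.0314), with 6.52% of all genes past the threshold, and its groups then did not overlap, as in 17.2% of all genes. The squamous genes are high in just these 2 tumors, which also kept the most Wls of their group. The part of either in the difference was not tested. The gene overlaps the antisense 4933405D12Rik, and the use of strand in quantification is not stated, so reads of the pair may not be told apart. Among 10 genes for fatty acid uptake and binding, 2 passed the threshold with all tumors kept, both higher, where 10.9% of all genes passed. Slc27a2, a transporter and acyl-CoA synthetase of very long chains, rose from 0.886 ± 0.545 to 2.90 ± 0.468 FPKM (1.09 ± 0.21 log2 units, limma adjusted p = 0.0081). Dbi, which binds acyl-CoA, rose by 0.48 ± 0.13 log2 units (limma adjusted p = 0.0369, lost under 8 of 23 alternatives). The scavenger receptor Cd36 measured 3.35 ± 1.95 and 1.81 ± 0.607 FPKM (limma adjusted p = 0.196).

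Plin2 (chromosome 4, 86648386 to 86670060, minus strand), which coats lipid droplets, measured 106, 96.6, 81.3, 98.1 and 99.0 FPKM in control and 105, 68.3, 95.7, 87.8 and 128 FPKM in Villin-WlscKO tumors. The Villin-WlscKO tumors held both the lowest and the highest value. The difference was -0.012 ± 0.15 log2 units (95% interval -0.34 to 0.31, limma adjusted p = 0.974). None of the 18 lipid droplet genes tested passed the threshold, where 10.9% of all genes did. Plin3, another coat protein, did not pass either (49.9 ± 4.95 and 47.8 ± 1.52 FPKM, limma adjusted p = 0.692). Summed over the 4 of 10 adipocyte genes present, the level was 6.28 to 14.1 FPKM in control and 7.65 to 12.8 FPKM in Villin-WlscKO tumors. The defining markers Adipoq, Plin1 and Lep were absent from the gene names.

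Compared per length, the 8 readable genes had the same order in both groups. Plin2 had the highest mean in control tumors (96.1 ± 8.95 FPKM), followed by Acadm (63.8 ± 12.6), Cpt2 (47.4 ± 5.43), Cpt1a (33.6 ± 4.29), Pparg (22.4 ± 1.99), Ppargc1a (7.81 ± 2.31), Fabp2 (2.87 ± 1.05) and Ppara (0.887 ± 0.410). In control tumors the ranges of Acadm and Cpt2 and those of Ppargc1a and Fabp2 overlapped, while the other neighbours were apart. In Villin-WlscKO tumors Cpt2 and Cpt1a, Cpt1a and Pparg, and Fabp2 and Ppara overlapped as well. Within the Villin-WlscKO group the genes shared extremes: tumor 5 had the highest value over all 10 tumors for 5 of the 8 genes (Cpt1a, Cpt2, Fabp2, Pparg and Plin2), and tumor 2 the lowest for Cpt2, Fabp2 and Plin2. Tumor 5 also had the largest summed level of 17 colonocyte genes (16124 FPKM) and tumor 2 the smallest of its group (6606 FPKM), and the part of the colonocyte genes in these values was not tested.

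**Figure D2:**
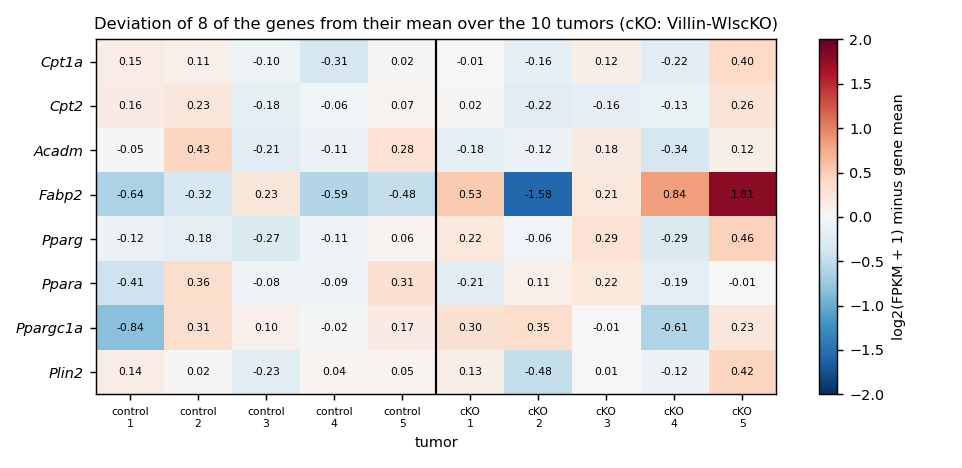
Each cell gives log2(FPKM + 1) of a gene in a tumor minus the mean of that gene over the 10 tumors, with red above and blue below the mean; Acads is left out because of its shared values. Villin-WlscKO tumor 5 stands above the mean for 7 of the 8 genes, and the largest deviations are those of Fabp2 in Villin-WlscKO tumors 2 (-1.58) and 5 (1.81).

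Among 5 genes for ketone body synthesis and use, all lay above 0, with a median of 0.35 log2 units. Only Bdh2 of these passed the threshold, where 10.9% of all genes did. Bdh2, the cytosolic relative of the hydroxybutyrate dehydrogenase Bdh1, measured 1.05, 1.16, 0.672, 0.261 and 0.527 FPKM in control and 8.36, 5.82, 3.16, 5.67 and 5.13 FPKM in Villin-WlscKO tumors. No value of one group reached the other. Bdh2 rose by 1.91 ± 0.22 log2 units, 3.77-fold on the FPKM + 1 scale (95% interval 1.43 to 2.40, limma adjusted p = 0.00047), and passed under all 22 alternatives in which it was tested.

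The other 4 ketone body genes did not pass. Bdh1, the mitochondrial dehydrogenase, had medians of 1.36 and 2.66 FPKM in control and Villin-WlscKO tumors (limma adjusted p = 0.486). Acat1, which joins acetyl-CoA units, measured 26.1 ± 1.72 and 34.1 ± 6.16 FPKM (limma adjusted p = 0.0884), and 3 of 23 alternatives carried it past the threshold, with adjusted p = 0.0341 without Villin-WlscKO tumors 2 and 3. Oxct1, the enzyme of ketone body use, measured 68.9 ± 7.95 and 83.4 ± 12.5 FPKM (limma adjusted p = 0.168). The transporters of butyrate and ketone bodies, 7 of which were tested, gave 0 calls by limma, where 10.9% of all genes were called. Among them were Slc16a1 (0.35 ± 0.23 log2 units, limma adjusted p = 0.377) and Slc5a8 (0.85 ± 0.66 log2 units, limma adjusted p = 0.465).

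**Figure D3:**
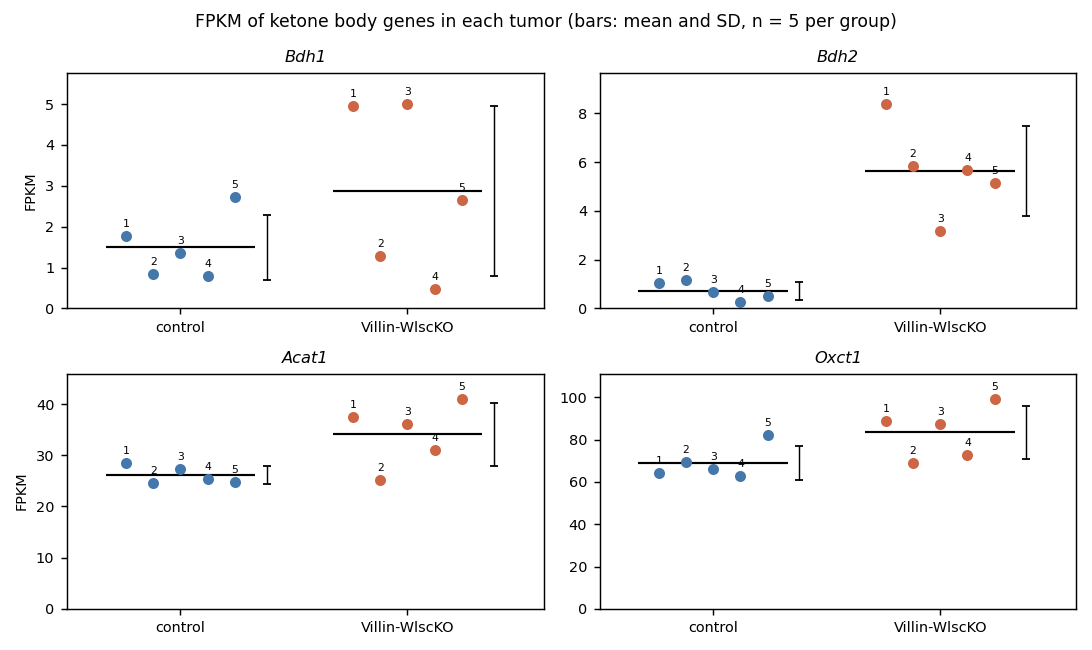
FPKM (y axis, linear from 0) of 4 ketone body genes in each control (blue) and Villin-WlscKO (orange) tumor, with tumor numbers, group means and bars of 1 SD. The groups are apart for Bdh2 and overlap for Bdh1, Acat1 and Oxct1.

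Over 10 lists of genes for fuel use, without the 9 genes, 14 of 124 genes tested passed the threshold (11.3%, against 10.9% of all genes), 9 higher and 5 lower, and the median difference was 0.084 log2 units. That share was near the background. Mitochondrial beta-oxidation had 3 of 23 past the threshold, all higher, namely Acadl, Slc25a20 and Acad9, a dehydrogenase that also helps to assemble complex I (0.25 ± 0.053 log2 units, limma adjusted p = 0.0157, in an entry shared with RP23-218L17.3, and adjusted p = 0.0770 without Villin-WlscKO tumors 2 and 3). Hadha and Hadhb, the subunits of the trifunctional protein, did not pass. Hadha measured 149.6 ± 18.7 and 170.5 ± 29.7 FPKM (limma adjusted p = 0.385) and Hadhb 10.5 ± 1.02 and 10.6 ± 1.86 FPKM (limma adjusted p = 0.987). Fatty acid activation had 1 of 15 higher, the synthetase Acsl5 (0.29 ± 0.071 log2 units, limma adjusted p = 0.0271, lost under 8 of 23 alternatives, with adjusted p = 0.134 without Villin-WlscKO tumors 2 and 3), and 2 lower. These were Acsl3 (-0.66 ± 0.14, limma adjusted p = 0.0129, in an entry shared with Utp14b, and adjusted p = 0.0783 without Villin-WlscKO tumors 2 and 3) and Acss3, a mitochondrial synthetase for short chains (1.24 ± 0.506 FPKM in control and 0 to 0.516 FPKM in Villin-WlscKO tumors, limma adjusted p = 0.0088). Peroxisomal oxidation had 1 of 12 higher, the branched-chain oxidase Acox2 (0.91 ± 0.21 log2 units, limma adjusted p = 0.0192), and 1 lower, the thiolase and lipid carrier Scp2 (-0.69 ± 0.085 log2 units, limma adjusted p = 0.00070).

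Of 16 known targets of the PPAR receptors tested, 0 were called higher and 1 lower by limma, against 6.12% and 4.75% of all genes. The latter, Pdk4, a kinase that turns off pyruvate dehydrogenase, measured 16.3, 9.75, 5.93, 17.0 and 13.1 FPKM in control and 4.72, 1.38, 5.39, 1.62 and 3.40 FPKM in Villin-WlscKO tumors. All 5 Villin-WlscKO values lay below the lowest control. Pdk4 fell by 1.67 ± 0.34 log2 units (limma adjusted p = 0.0125). Angptl4, a secreted target, measured 1.88 ± 0.667 and 1.93 ± 0.973 FPKM (limma adjusted p = 0.993). The opposite pathway, fatty acid synthesis, had 0 of 16 genes past the threshold in limma, against 10.9% of all genes.

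**Figure D4:**
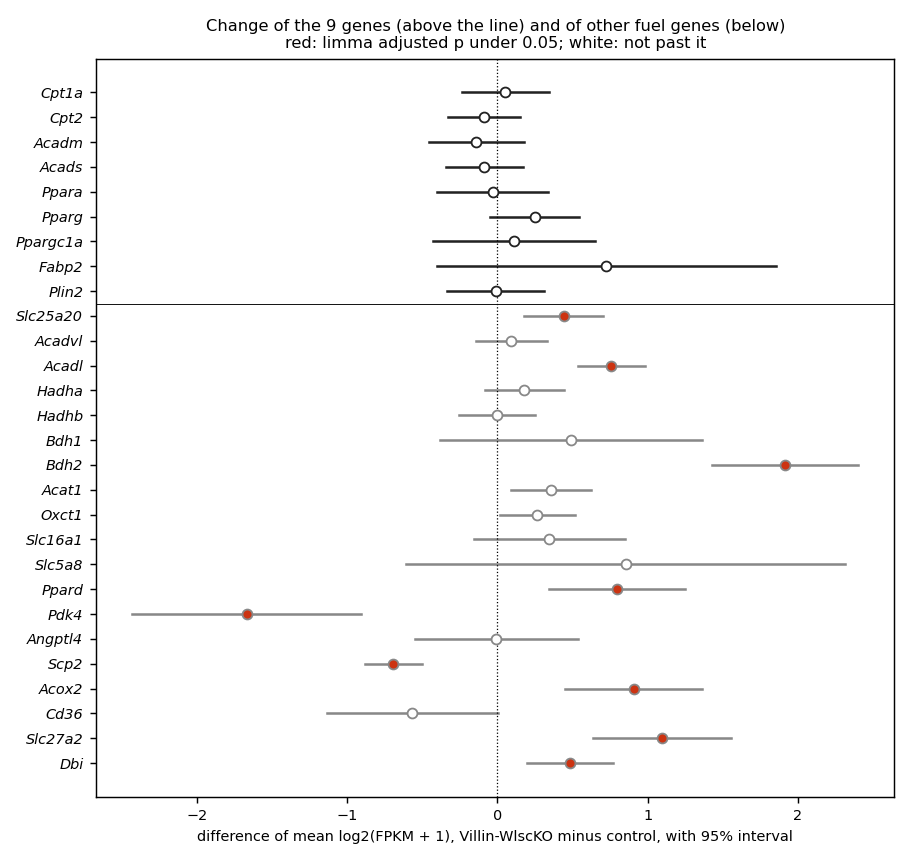
Change in mean log2(FPKM + 1) from control to Villin-WlscKO tumors (x axis) for the 9 genes (black intervals, above the line) and 19 other fuel genes (grey intervals, below); points are estimates, lines 95% intervals, red points passed a limma adjusted p of 0.05. All 9 intervals above the line include 0. Those of all red points, among them Acadl, Bdh2 and Pdk4, lie clear of it. So do those of Acat1 and Oxct1, which did not pass, since the intervals are not adjusted for the number of genes.

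Of the markers of differentiated colonocytes, 4 rose in Villin-WlscKO tumors. Of 17 tested, 15 lay above 0 (median 0.77 log2 units) and 4 passed the threshold (23.5%, against 10.9% of all genes). All 4 were higher: Krt20 (0.91 ± 0.20 log2 units, limma adjusted p = 0.0156), Ceacam1 (1.02 ± 0.18, limma adjusted p = 0.0052, in an entry shared with Ceacam2), Tmigd1 (1.25 ± 0.23, limma adjusted p = 0.0071) and Guca2b (0.78 ± 0.15, limma adjusted p = 0.0097). The summed level of the 17 genes was 5123 to 9213 FPKM in control and 6606 to 16124 FPKM in Villin-WlscKO tumors, and their part in the rise of Bdh2 and Acadl was not tested. With Villin-WlscKO tumors 2 and 3 left out, 2 of these passed, Krt20 and Ceacam1, and Tmigd1 (limma adjusted p = 0.0511) and Guca2b (limma adjusted p = 0.0612) did not. Macrophage genes summed to 348 to 938 FPKM in control and 307 to 609 FPKM in Villin-WlscKO tumors, endothelial genes to 57.5 to 105 and 46.2 to 104 FPKM, and muscle genes to 64.9 to 151 and 83.2 to 163 FPKM, and none of the genes of these lists passed the threshold. Small intestinal enterocyte genes, 7 of 14 of which were in the table, summed to 30.5 to 43.7 and 38.5 to 89.3 FPKM, Fabp2 included, with 0 calls by limma.

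**Figure D5:**
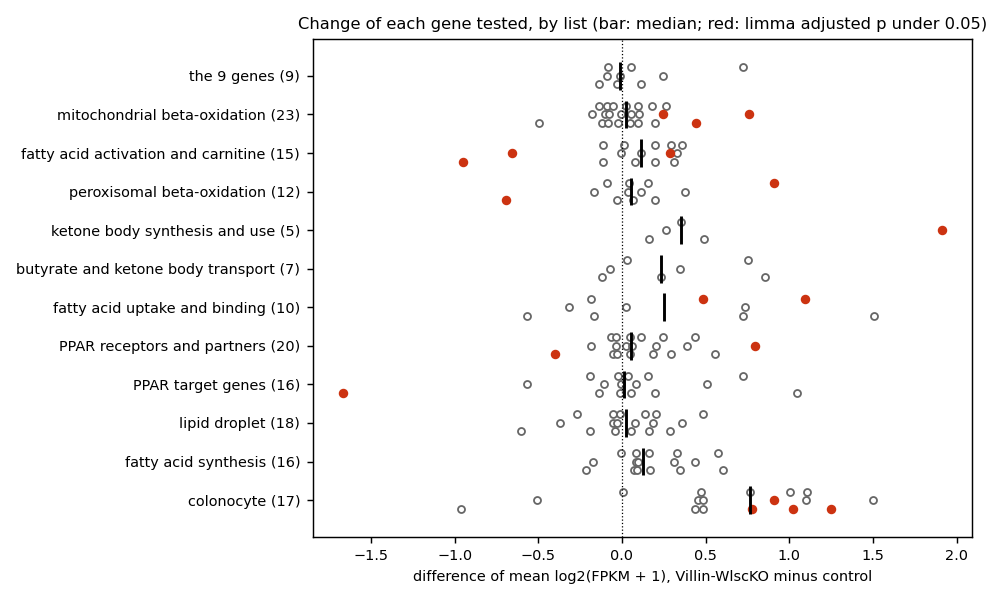
Change in mean log2(FPKM + 1) from control to Villin-WlscKO tumors (x axis) of each gene tested (points) in 12 lists, with the number tested in parentheses and a black bar at the median; red points passed a limma adjusted p of 0.05. The 9 genes, with the entry for Acads included, centre on -0.012 with no red point, ketone body genes on 0.35 with 1 and colonocyte genes on 0.77 with 4.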

How the data were processed

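Messenger RNA of 10 AOM/DSS colon tumors was sequenced by the authors from stranded libraries. After FastQC, they aligned reads to GRCm38.p5 using TopHat2 2.1.1 and quantified transcripts with Cufflinks 2.2.1 and Cuffdiff. The deposited values are FPKM per gene name and tumor. The annotation release and the use of strand are not given in the sources used here. A locus with several names gave each of them the same values, and 2419 names share all their values with another. All 10 value columns were assigned to tumors by their labels. No read number could be taken from FPKM, so precision rests on the 5 tumors of a group.

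Genotypes were compared on log2(FPKM + 1) by limma 3.58.1 (R 4.3.3) with an eBayes trend, no covariate and no block, over 16757 genes with a mean of at least 0.5 FPKM, two-sided, at a Benjamini-Hochberg adjusted p under 0.05. Fold changes on this scale understate changes of low genes. The method was tested on simulated data, in which the planted changes were larger than the difference of any of the 9 genes. That test does not tell how well smaller changes are found. Two-sided exact permutation tests, lists and figures used scipy 1.17.1, pandas 2.3.3, numpy 2.4.6 and matplotlib 3.10.9 under Python 3.11.15. Positions and transcripts are those of GENCODE M21. The 9 genes, the gene lists and the alternatives were chosen with earlier results of these data known. Named are all 9 genes, the 3 genes of each list that rose most and the 3 that fell most among those past the threshold, and a fixed set of pathway genes with Krt5 and Wls, except some genes that are not reported here and were left out of the lists; Guca2b, the ratios and the Rpl37 comparison were added after values were seen. Alternatives were other pseudocounts, scalings, filters, variance models, tumor weights, the replicate block, and leaving out each tumor or Villin-WlscKO tumors 2 and 3; counting identical entries once was added after the data were seen.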

Additional observations from a re-analysis of the deposited data

Results flagged for a closer look

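Hadha, which encodes the alpha subunit of the mitochondrial trifunctional protein, had 1 tumor far from the rest of its group. Villin-WlscKO tumor 5 measured 223 FPKM where the other 4 Villin-WlscKO tumors lay between 151 and 166 FPKM, so that the gap to the nearest tumor made up 0.757 of the range of the group on the log2(FPKM + 1) scale. It was the only 1 flagged of 82 groups of tumors examined in this way, a smaller share than the 1 in 20 or so that chance gives. Villin-WlscKO tumor 5 also held the highest values of Cpt1a, Cpt2, Fabp2, Pparg and Plin2.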

How the results depend on the processing

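Pparg and Acadm kept their direction and stayed short of the threshold under all alternatives run, and Acadl rose past it under all. The number of genes past the threshold, 1822 (1026 higher, 796 lower), was 1092 with Villin-WlscKO tumors 2 and 3 left out and 1231 to 1983 without single tumors. The split was 1385 higher to 412 lower after rescaling to equal FPKM sums, 894 to 1126 after quantile normalization and 1040 to 451 after centring on pan-epithelial genes. Of the 9 genes, 1 (Fabp2) passed without Villin-WlscKO tumor 2 (0 to 1 over single tumors) and 1 with tumors 2 and 3 left out, where 1 also had groups without overlap. The replicate numbers are not known to pair the tumors: correlations of same-numbered tumors after removal of group means were 0.064, -0.087, 0.063, 0.10 and 0.16. The fit with the replicate block gave 1627 genes and 0 of the 9.

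Small differences changed sign, and the causes were not tested. Rescaling to equal FPKM sums gave 0.012 for Cpt2, 0.019 for Acads, 0.092 for Plin2, 0.087 for Hadhb, 0.069 for Angptl4 and 0.048 for Plin3, while the median of all genes was 0.097. Centring on pan-epithelial genes gave 0.0026 for Ppara, 0.022 for Plin2, 0.030 for Hadhb and 0.029 for Angptl4. Tumor quality weights gave 0.11 for Angptl4. With Villin-WlscKO tumors 2 and 3 left out, Cpt2 was at 0.0033, Plin2 at 0.14, Hadhb at 0.11, Rxra at -0.089 and Angptl4 at 0.053. Without single tumors the differences ran from -0.040 to 0.12 for Cpt1a, -0.14 to 0.053 for Ppara, -0.084 to 0.28 for Ppargc1a, -0.12 to 0.11 for Plin2, -0.094 to 0.051 for Hadhb, -0.034 to 0.13 for Rxra and -0.16 to 0.12 for Angptl4.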
